A study of Mus musculus with 4 samples.

Results

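Cytosolic ribosomal protein genes encode the proteins of the 60S and 40S subunits of the ribosome that works in the cytoplasm. They were examined here in 2 lists of N6-methyladenosine (m6A) peaks from mouse heart. A gene was taken as a member where its symbol began with Rpl, Rps or Rplp, continued with a number and had no ending other than a paralog letter, number or l. Pseudogenes named with -ps and the S6 kinase genes were thereby left out. The choice used names only and no measured value. It gave 62 of the 6653 genes with a peak. By name alone, 44 of them were taken as large subunit genes and 18 as small subunit genes.

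The hearts came from C57BL/6 mice that carried an osmotic minipump on the back for 14 days. In the CHAPIR group the pump delivered 30 mg/kg of a mimic of CHAPIR, which belongs to the PIWI-interacting RNAs, and the labels call these hearts CHAPIR-overexpressed. The control group (NC) was given a mimic of scrambled sequence in the same way. Neither the age nor the number of animals per library is stated in the labels. Each group had 1 library of RNA pulled down with an antibody against m6A and 1 input library, and the authors called 1 peak list per group from them, named the control list (NC) and the CHAPIR list below. No replicate exists, so no difference between the lists could be tested, and each is a difference between these libraries. Read depth is unknown, and input levels of the mRNAs were not analysed here, so more methylation and easier detection of an abundant mRNA cannot be told apart.

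The control list held 23155 lines (1 per peak and transcript) on 5638 genes, and the CHAPIR list held 16562 lines on 4572 genes. Of 11 fixed cardiomyocyte markers, 10 had a peak in both lists and Actc1 had one in the CHAPIR list only. All 4 adipocyte markers had a peak in the control list only, and 3 of 6 macrophage markers (Csf1r, C1qb and Cd74) in the CHAPIR list only. Among endothelial markers 3 of 5 were in both lists and Tie1 in the CHAPIR list only. Of the fibroblast markers 4 of 5 were in both lists and Dcn was in the CHAPIR list only, and none of 4 skeletal muscle markers had a peak. The lists come from whole heart, so fewer cells of a type and less RNA per cell cannot be told apart, and the part of these markers' cells in the results below was not tested.

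Ribosomal protein mRNAs are short, abundant and made in matched amounts. In mammals their transcription typically begins at a C followed by an uninterrupted run of pyrimidines, the 5' terminal oligopyrimidine (TOP) tract, through which the kinase mTOR and the RNA-binding protein Larp1 adjust their translation to growth signals. m6A is placed on mRNA mainly by the Mettl3 and Mettl14 complex, and in most mRNAs it lies around the stop codon and in the 3' UTR. In heart muscle, ribosome supply is known to rise as the muscle cells grow.

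The region around the annotated start is shown for members of each class whose window holds a run of pyrimidines. Whether these runs are TOP tracts was not tested. RefSeq start windows on GRCm38.p6 were matched by symbol for 46 of the 62 members, with 55 starts among them. Each line below holds 30 bases around a start, from the 5' end to the 3' end on the transcribed strand, and capitals mark the run nearest the 5' end that opens with C and goes on with C or T letters to a length of at least 5. The 7 windows were picked for that run from the 29 of 55 that hold one ending inside the window. The other 26 hold none that ends inside it, and that of Rpl13a closes with a run cut off by its edge. Rpl7a, Rpl14, Rps10 and Rplp2 had a peak in both lists, Rpl19 in the control list only, and Rpl38 and Rps15a in the CHAPIR list only.
Rpl7a, chr2:26910792-26910821, plus strand: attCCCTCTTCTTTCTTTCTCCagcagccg
Rpl14, chr9:120571502-120571531, plus strand: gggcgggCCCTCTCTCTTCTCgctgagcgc
Rps10, chr17:27635230-27635259, minus strand: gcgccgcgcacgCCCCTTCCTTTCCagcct
Rplp2, chr7:141447636-141447665, plus strand: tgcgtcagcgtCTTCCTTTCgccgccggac
Rpl19, chr11:98026909-98026938, plus strand: tgggCTCTCCCCTTCgcagataatgggcgg
Rpl38, chr11:114668565-114668594, plus strand: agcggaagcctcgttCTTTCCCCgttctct
Rps15a, chr7:118116133-118116162, minus strand: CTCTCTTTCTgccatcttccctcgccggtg

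The marked run is 19 letters long in Rpl7a, 14 in Rpl14, 13 in Rps10, 11 in Rpl19 and 8 in Rpl38. The annotated start is the letter just after the middle of each line. The runs of Rpl7a, Rpl14, Rps10 and Rplp2 cross it, that of Rpl38 opens at it, and those of Rpl19 and Rps15a end before it. A C followed by at least 4 letters that are C or T was searched on the transcribed strand within 25 bases of the start on either side, as the only motif. It was found at 43 of the 55 members' starts (78.2%) and at 55.6% of the 32851 starts in the table. Within 5 bases of the start it was found at 21 (38.2%), against 18.3% of all starts. By class it stood within 25 bases of 26 of 32 starts of members in both lists, 5 of 6 starts of NC only members and 12 of 17 starts of CHAPIR only members. The sequence matches describe the annotated starts and were not linked to the peaks, which lie at the other end of most of these genes.

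The question of the study's design was which heart transcripts carry m6A peaks with the CHAPIR mimic and with the scrambled mimic. Among the large subunit genes, 21 of 44 (47.7%) had a peak in both lists, against 53.5% of all genes with a peak. Another 18 (40.9%, 95% Wilson interval 27.7 to 55.6, which covers counting error only) had one in the CHAPIR list only, against 15.3% of all genes. The remaining 5 (11.4%) had one in the control list only, against 31.3% of all genes. Among the small subunit genes, 13 of 18 (72.2%) were in both lists, 5 (27.8%, interval 12.5 to 50.9) in the CHAPIR list only and 0 in the control list only. The CHAPIR only shares of the subunits have intervals that overlap widely.

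Both subunits therefore had more genes in the CHAPIR list (39 large and 18 small) than in the control list (26 and 13), while the CHAPIR list was the shorter over all genes. With both lists brought to equal length by authors' FDR, the CHAPIR only share was 41.9% of the members (from 37.1%) and 24.1% of all genes (from 15.3%). The NC only share there was 8.06% of the members, and that of all genes fell to 19.6% from 31.3%. The gap between members and all genes was thus smaller for both of these classes. All 23 CHAPIR only members and all 5 NC only members stayed in their class there, and Rpl18, Rpl7l1 and Rps4l moved from both lists to the CHAPIR list only.

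**Figure D1:**
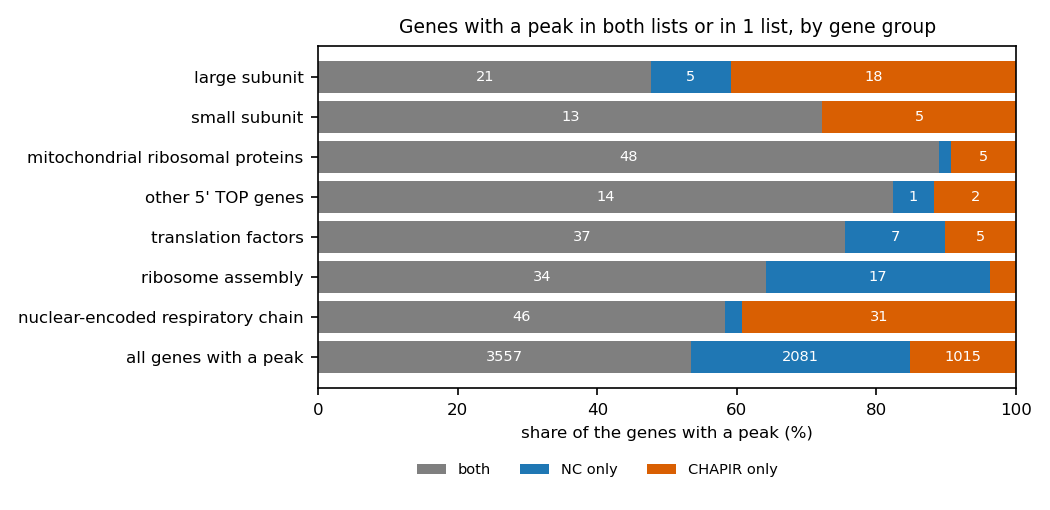
Share of genes with a peak (x axis, %) that had it in both lists (grey), in the control list only (blue) or in the CHAPIR list only (orange), by gene group, with gene counts inside the bars where space allowed. CHAPIR only genes make up 40.9% of the large subunit bar, 27.8% of the small subunit bar and 15.3% of the bar for all genes.

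The names of the standard set show which proteins of the ribosome had a peak. Of 46 large subunit names, 40 (87.0%) had a peak in at least 1 list, and Rpl10, Rpl15, Rpl27a, Rpl31, Rpl34 and Rpl35 had none in either list analysed here. Of 30 small subunit names, 17 (56.7%) had a peak. The 13 for which no peak was listed included Rps4x, Rps6, Rps12, Rps13, Rps14, Rps16, Rps20, Rps21, Rps26, Rps28 and Rps29. Rps6, which encodes the protein that S6 kinases phosphorylate downstream of mTOR, was among them. The other members are the paralogs Rpl3l, Rpl7l1, Rpl22l1, Rpl36al and Rps4l, and no peak was listed for the paralogs Rpl10l, Rpl39l and Rps27l.

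Ribosomal proteins with other names were read beside them. Rpsa, a 40S protein also known as a laminin receptor, had a peak that joined coding sequence and 3' UTR in both lists, at 7.45-fold over input in the control list and 11.1-fold in the CHAPIR list. Rack1, a scaffold for kinases on the 40S subunit, and Fau, which encodes a ubiquitin-like protein fused to a 40S protein, had no peak in either list. Fold enrichments and FDRs are the authors' values of pulled-down over input signal. No scaling was made between the lists, so each value describes a peak within its own list, and values from both lists side by side make no comparison. Values for a gene are those of its leading peak, the one of smallest FDR on protein-coding transcripts where it had any.

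Large subunit genes with a peak in both lists had their leading peaks mostly across the end of the coding sequence. Rpl4, whose protein lines the tunnel through which the new peptide leaves, had an FDR listed at 0 in both lists, at the same 356 bases (chr9:64178252-64178607, GRCm38, plus strand). Its fold was 3.97 in the control list and 18.1 in the CHAPIR list. Rpl17, another tunnel protein, had folds of 3.04 and 9.02 in the lists. Rpl23 had folds of 3.47 (FDR 1e-102) and 9.88 (FDR 1e-204) over peaks with the same 3' edge.

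Rpl5 and Rpl11 bind the 5S rRNA and, when free, hold back Mdm2, the ubiquitin ligase of p53. The Rpl5 peak had a fold of 4.16 over 446 bases in the control list and 3.49 over 298 bases in the CHAPIR list. The Rpl11 peak had a fold of 3.0 over 298 bases and 4.79 over 269 bases. Rpl26, known to bind p53 mRNA, had the same 147 bases in both lists, with folds of 2.41 and 3.79. All of these had peaks that reached from the coding sequence into the 3' UTR in both lists.

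Rpl13a, which in human monocytes leaves the ribosome to silence inflammatory mRNAs, had folds of 2.80 and 3.96. Its peaks share bases with a peak assigned to the gene model Gm45713 on the same strand, so reads of the 2 annotations cannot be told apart. The Rpl13 folds were 3.01 and 4.70, and those of Rpl14 were 2.52 and 5.83. Rpl21 had folds of 2.07 (FDR 1e-114) and 1.71 (FDR 3.16e-33). The remaining shared members of the large subunit had NC folds between 1.21 (Rpl37a) and 4.64 (Rpl24) outside the paralogs described below.

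The acidic stalk of the 60S subunit, which recruits elongation factors, is built from Rplp0, Rplp1 and Rplp2. Rplp0, the base of the stalk, had a peak in the CHAPIR list only, at 10.7-fold (FDR 5.01e-67) over 207 bases of coding sequence and 3' UTR (chr5:115563403-115563609, plus strand). Rplp1 was also in the CHAPIR list only, with a peak that spans the 5' UTR and the start of the coding sequence at 4.33-fold (FDR 6.31e-38) and another at the 3' end at 1.88-fold (FDR 1e-18). Rplp2 was in both lists, at 1.95-fold over 60 bases of 3' UTR in the control list and at 6.94-fold over 89 bases in the CHAPIR list. All 3 stalk genes thus had a peak in the CHAPIR list and Rplp2 alone had one in the control list.

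Among the other CHAPIR only genes of the large subunit, the smallest FDR belonged to Rpl41, which encodes the shortest ribosomal protein. Its peak covered 146 bases of 3' UTR at 2.70-fold (FDR 2e-80), and a separate peak at its 5' end had folds of 1.79 to 2.26 on protein-coding transcripts. Rpl22, an RNA-binding protein, had 3.22-fold (FDR 6.31e-52) and Rpl28 had 3.12-fold (FDR 3.98e-37). Rpl37 had a fold of 17.7 (FDR 1e-26) on its coding transcript and of 3.13 to 5.98 on its other lines. Another 63 genes in that list have a line with the same fold of 17.7, so it does not rank Rpl37 finely.

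Rpl8 had a fold of 1.78 (FDR 2.51e-22) and Rpl29, which the mouse can lose and still live, had 2.86 (FDR 2.51e-14). Rpl38, whose loss in mice disturbs the translation of Hox mRNAs, had a peak of 58 bases at 1.54-fold (FDR 1.05e-09), the lowest fold of the class. Rpl39, a further tunnel protein, had a peak of 350 bases over its 5' UTR, coding sequence and 3' UTR at 2.25-fold (FDR 7.94e-13). Rpl27, Rpl32, Rpl30, Rpl9, Rpl6 and Rpl23a had folds between 1.64 and 3.36. Peaks of Rpl22l1, Rpl23a and Rpl32 lie under a peak of another gene on the opposite strand (Gm33051, Tlcd1 and Cand2), and the sources used here do not say whether the authors' calling used strand. Without those 3 members, 15 large subunit genes remained in the CHAPIR list only.

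The 5 NC only genes of the large subunit had low folds, from 1.41 to 2.49 with a median of 1.93. Over all NC only genes the median was 4.18. Rpl19 had a peak of 413 bases across its coding sequence and 3' UTR at 2.49-fold (FDR 3.16e-38, chr11:98029436-98030492, plus strand). Rpl3l had a coding-sequence peak of 449 bases at 2.30-fold (FDR 3.16e-30). Rpl7 had 1.93-fold (FDR 6.03e-08) on a retained-intron transcript only, Rpl3 had 1.58-fold (FDR 1.55e-07) and Rpl10a had 1.41-fold (FDR 0.000263). Of the 4 with a coding line, only Rpl19 had a peak that touched the 3' UTR.

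The paralog pairs differed in where their peaks were listed. Rpl3, which reaches towards the peptidyl transferase centre, and Rpl3l, its form in heart and skeletal muscle, were both in the control list only. The coding stretch of 37 bases below is the part of the Rpl3l peak for which reference sequence was at hand, shown because Rpl3l is the muscle form (GRCm38.p6, plus strand, capitals not used).
Rpl3l, chr17:24732435-24732471: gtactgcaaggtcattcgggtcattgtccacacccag

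Rpl22 and Rpl22l1, a pair in which the mouse Rpl22 protein holds down Rpl22l1, were both in the CHAPIR list only, at 3.22-fold and 7.74-fold. Rpl36a and Rpl36al were both in both lists. Rpl36a had folds of 3.41 in the control list and 2.62 in the CHAPIR list. Rpl36al had the same 350 bases in both, with folds of 8.66 and 4.72, and shares those bases in part with the clone-named gene AC099934.3 on the same strand. Close copies such as these can share reads, and the sources used here do not say how the authors placed reads with several matches.

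Rpl7 was in the control list only, whereas Rpl7l1, which acts in 60S assembly, was in both. The leading peaks of Rpl7l1 do not overlap. In the control list it lay in the 3' UTR over 61 bases at 6.62-fold (FDR 0.001), and in the CHAPIR list over 5' UTR and coding sequence at 3.99-fold (FDR 4.47e-05). The CHAPIR list also held a 3' UTR peak for it at 10.9-fold (FDR 0.000447), and that peak overlaps the NC peak. Rps27 was in both lists with folds of 1.93 and 3.81, and no peak was listed for Rps27l.

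Small subunit genes with a peak in both lists were led by Rps19, the gene most often mutated in human Diamond-Blackfan anaemia. Its FDR was 1e-211 in the control list and 1e-131 in the CHAPIR list, over 270 bases of coding sequence in each. The NC folds ran from 1.93 to 4.50 over its 8 lines. The CHAPIR folds ran from 1.99 to 39.4 over its 7 lines, and 39.4 stood on 1 transcript, beside 4.12 on the other protein-coding transcripts whose peaks reach the 3' UTR. The fold of an Rps19 peak therefore depended on the transcript it was called on.

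Rps24, also mutated in the human anaemia, had 1.94-fold (FDR 1e-110) in the control list and 2.49-fold (FDR 1e-115) in the CHAPIR list. Rps9 had 2.13-fold and 3.74-fold, Rps18 had 2.32-fold and 3.54-fold, and Rps3a1 had 2.14-fold and 2.11-fold. Rps10, a further gene of the human anaemia, had 3.51-fold in the control list and 7.63-fold in the CHAPIR list. Each of these peaks other than that of Rps9 in the control list reached from the coding sequence into the 3' UTR.

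Rps7, whose free protein also binds Mdm2, had folds of 2.22 and 4.33. Rps27a, which encodes ubiquitin fused to a 40S protein, had 1.99 and 2.58. Rps23, at the decoding centre, had 1.63 over 147 bases (FDR 1.26e-20) and 1.31 over 59 bases (FDR 0.000417), the lowest fold of any member in the CHAPIR list. Rps4l, annotated as a processed transcript, had 2.75 and 7.51.

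The 5 small subunit genes in the CHAPIR list only were Rps15, Rps2, Rps15a, Rps25 and Rps3. Rps15 had 2.34-fold (FDR 2.51e-47) and Rps2, at the channel where mRNA enters, had 1.82-fold (FDR 7.94e-28). Rps15a had 2.86-fold (FDR 3.98e-20) in the 3' UTR, and Rps3, an entry channel protein that also has a role in DNA repair, had 1.68-fold (FDR 1.70e-09). Rps25, needed for initiation at several viral internal ribosome entry sites, had 34.3-fold over 87 bases of 3' UTR on 1 transcript and 3.71-fold over 90 bases on another. All 5 had peaks that touched the 3' UTR. At the leading peaks 4 of them had folds under 3 while Rps25 stood far above. That contrast depended on the transcript, since Rps15a had 3.69-fold on its other transcript, close to the 3.71-fold of Rps25.

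**Figure D2:**
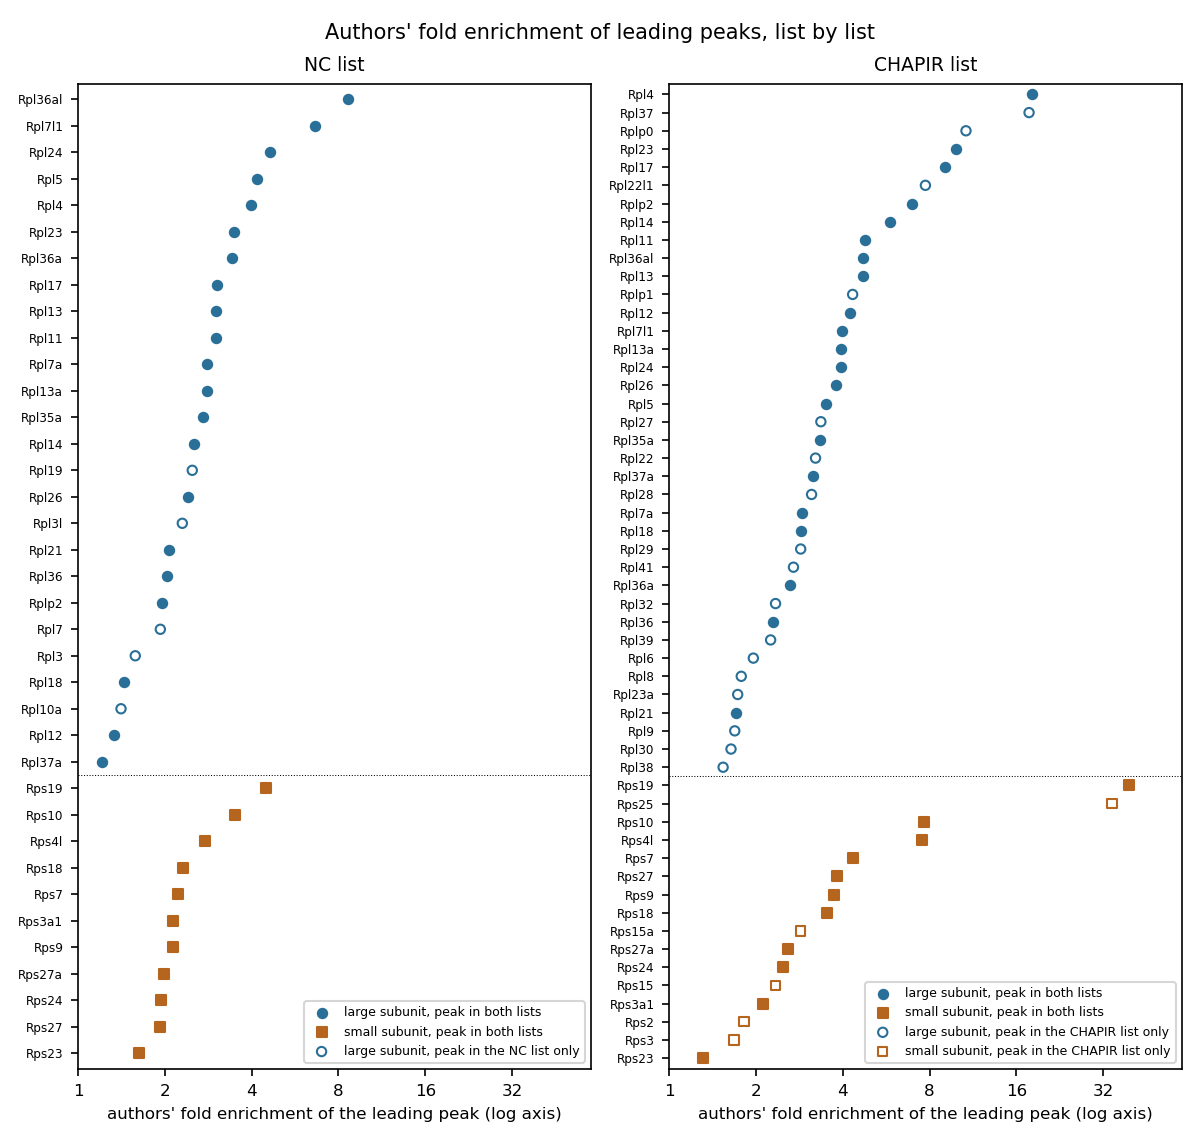
Authors' fold enrichment of the leading peak (x axis, log scale) for 37 of 39 members in the control list (NC, left) and 54 of 57 in the CHAPIR list (right), sorted within subunit, with circles for large and squares for small subunit genes. Open symbols mark genes absent from the other list: the 5 NC only genes lie between 1.41 and 2.49, and the CHAPIR only genes between 1.54 and 34.3.

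As a group the members had low folds and small FDRs within each list. In the control list the median fold was 2.41 (large 2.62, small 2.14) against 4.21 over all genes, and 6 of 39 members (15.4%) had a fold of at least 4 against 53.3% of all genes. In the CHAPIR list the median was 3.33 (large 3.33, small 3.34) against 4.85, and 19 of 57 members (33.3%) had a fold of at least 4 against 62.7% of all genes. An FDR at or under 1e-05 was reached by 33 members (84.6%) in the control list and 52 (91.2%) in the CHAPIR list, against 62.6% and 66.5% of all genes. The CHAPIR only members had a median fold of 2.70 beside 3.88 for members in both lists, each within the CHAPIR list.

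The mitochondrial ribosomal proteins, which serve the separate ribosome of the mitochondrion, had medians of 2.65 in the control list and 4.53 in the CHAPIR list. Nuclear-encoded genes of the respiratory chain had medians of 2.53 and 3.63. Low folds were thus shared with both of these groups in the control list. In the CHAPIR list the respiratory chain median also lay near the 3.33 of the members. The mitochondrial ribosomal protein median lay nearer the 4.85 of all genes there.

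The leading peaks touched the 3' UTR in most members that had a line on a protein-coding transcript. In the control list the peak touched the 3' UTR in 32 of the 36 members with a line on a protein-coding transcript (21 of 24 large, 11 of 12 small), or 88.9% against 54.5% of all genes. In the CHAPIR list it did so in 50 of 54 (35 of 37 large, 15 of 17 small), or 92.6% against 70.2% of all genes. Most of these peaks crossed the stop codon: 29 members (80.6%) in the control list and 46 (85.2%) in the CHAPIR list had a leading peak annotated to both coding sequence and 3' UTR, against 26.4% and 22.9% of all genes. Only 3 members in the control list and 4 in the CHAPIR list had a peak in the 3' UTR alone. Mitochondrial ribosomal proteins touched the 3' UTR about as often (91.7% in the control list and 94.3% in the CHAPIR list). Nuclear-encoded respiratory chain genes did so in 73.9% and 88.0%. A leading peak annotated to both regions was less frequent there, at 54.2% and 49.1% of the former and 45.7% and 52.0% of the latter.

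The exceptions were few. In the control list the leading peaks of Rpl10a, Rpl3, Rpl3l and Rps19 were annotated to the coding sequence alone, and in the CHAPIR list those of Rps19 and Rps23. The leading peak touched a 5' UTR in 0 members in the control list and in 3 in the CHAPIR list, which were Rpl39, Rpl7l1 and Rplp1. In the CHAPIR list the separate peak of Rpl41, not its leading one, also touched a 5' UTR. The 3' edge of the leading peak was within 100 bases of the RefSeq gene end in 24 members (61.5%) in the control list and in 36 (63.2%) in the CHAPIR list, against 12.6% and 29.01% of all genes.

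**Figure D3:**
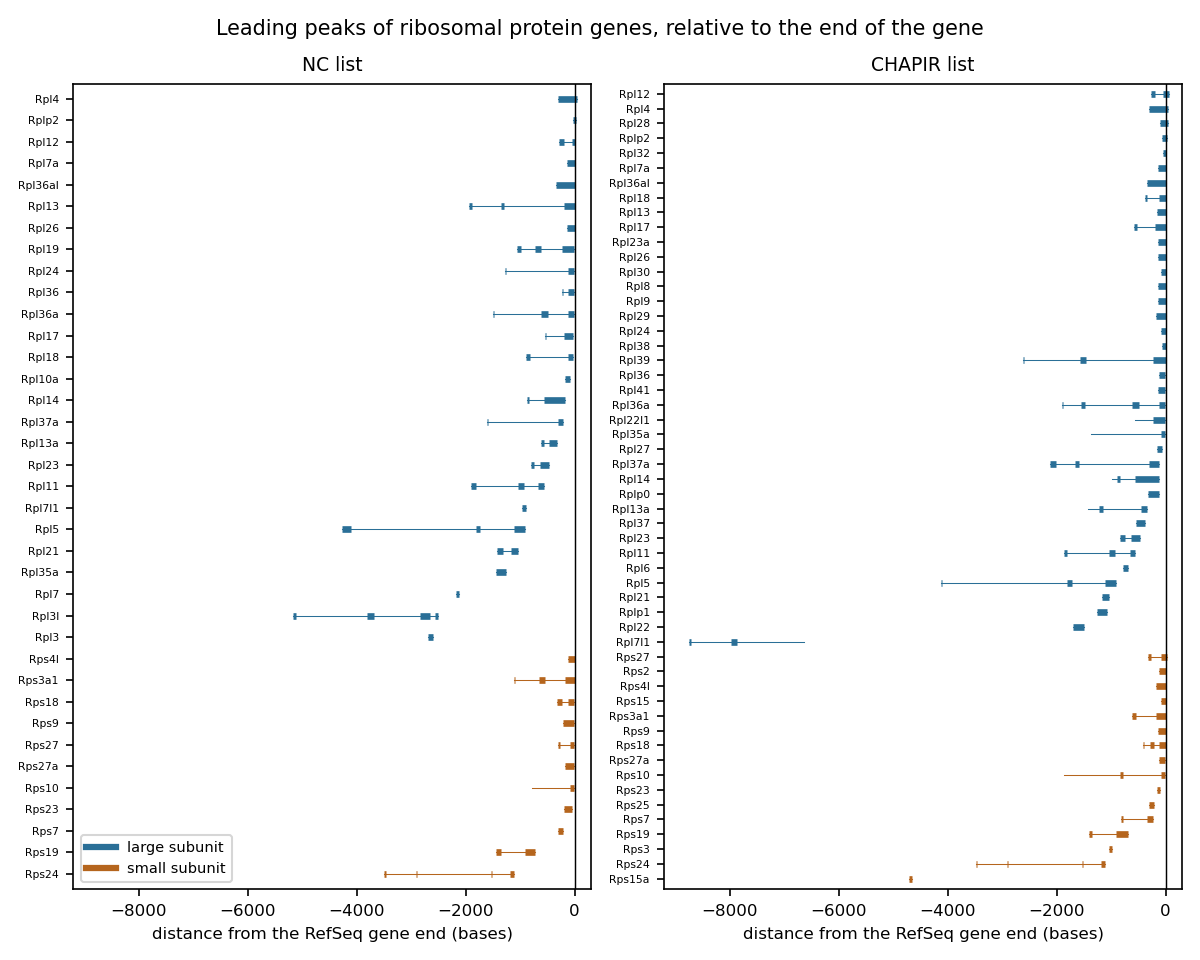
Leading peaks of 37 of 39 members in the control list (NC, left) and 54 of 57 in the CHAPIR list (right), with exonic blocks as thick bars, the gaps between blocks as thin lines, and the x axis giving the genomic distance in bases from the RefSeq gene end at 0. Blue bars are large and brown bars small subunit genes, and over all members 24 of 39 in the control list and 36 of 57 in the CHAPIR list have their 3' edge within 100 bases of the gene end.

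The peaks of the members were narrow and mostly at 1 place per gene. Their median width was 174 bases in the control list and 150 bases in the CHAPIR list, against 269 and 209 bases over all genes. It was 180 and 177 bases for mitochondrial ribosomal proteins and 210 and 203 for respiratory chain genes. Over 1 separate position was found in 4 members in the control list (10.3%) and in 5 in the CHAPIR list (8.77%), against 34.1% and 30.4% of all genes. The shares were 12.2% and 9.43% for mitochondrial ribosomal proteins and 10.4% and 19.5% for respiratory chain genes. The members with over 1 position were all large subunit genes: Rpl12, Rpl26, Rpl3 and Rpl5 in the control list, and Rpl26, Rpl37, Rpl41, Rpl7l1 and Rplp1 in the CHAPIR list. For Rpl26 the second position was the same in both lists, 174 bases on a processed transcript at 1.91-fold in the control list and 1.78-fold in the CHAPIR list.

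In the control list the second positions of Rpl12 (1.27-fold), Rpl3 (2.46-fold) and Rpl5 (2.82-fold) were on retained-intron transcripts. Retained-intron transcripts held 31.3% of the members' lines in the control list and 27.9% in the CHAPIR list, against 11.5% and 10.5% of all lines. Protein-coding transcripts held 46.3% and 53.9%, against 74.1% and 76.2% of all lines. The same stretch of exon is often counted on several transcripts of a ribosomal protein gene, and therefore the counts above are of genes and not of lines.

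All 34 members in both lists had peaks that overlap between the lists by at least 1 exonic base on the same strand, against 90.6% of all genes in both lists, and 33 had peaks that share at least 50% of the bases of each. A transcript with a peak in both lists existed for 33 of them, Rpl18 being the exception. Rpl7l1 was left out of the following counts, since its leading peaks on that transcript do not overlap, which left 32 members. The 3' edge was the same base in 25 of them and reached further in the control list in 1 and in the CHAPIR list in 6. At the 5' edge 8 were equal, 11 reached further in the control list and 13 in the CHAPIR list. Both edges were equal in 7, among them Rpl26, Rpl36al, Rpl4, Rpl7a, Rps18 and Rps9.

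The width on these transcripts was larger in the control list for 10 members, larger in the CHAPIR list for 14 and equal for 8, with medians of 176.5 and 206 bases. The Rpl13 peak covered 301 bases in the control list and 151 in the CHAPIR list, and the Rpl37a peak 118 and 382. On leading peaks, which need not lie on the same transcript, the 34 shared members had medians of 176.5 bases in the control list and 174 in the CHAPIR list. The order thus changed with the choice of peak and members. Leading peaks of all genes in both lists had medians of 358 and 239 bases. Over all lines of the lists, a different set, the medians were 238 and 181.

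Ribosomal protein genes are short, and the share of list only genes varied with gene length. RefSeq spans of the members ran from 941 bases (Rps4l) to 11774 (Rps15a) with a median of 3161, against 24064.5 over 6414 genes with a span. Over 5 span groups of equal size, from the shortest to the longest genes, the CHAPIR only share of all genes was 21.8%, 16.4%, 15.3%, 10.9% and 11.3%. The group of shortest genes (up to 7804 bases) held 56 of the 62 members. In it 21 members (37.5%) were in the CHAPIR list only, beside 21.1% of the other genes, and 3 members (5.36%) in the control list only, beside 25.8% of the other genes. By subunit, 17 of 39 large (43.6%) and 4 of 17 small subunit genes (23.5%) of this group were in the CHAPIR list only. The small subunit share was thus near the 21.1% of the other genes.

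**Figure D4:**
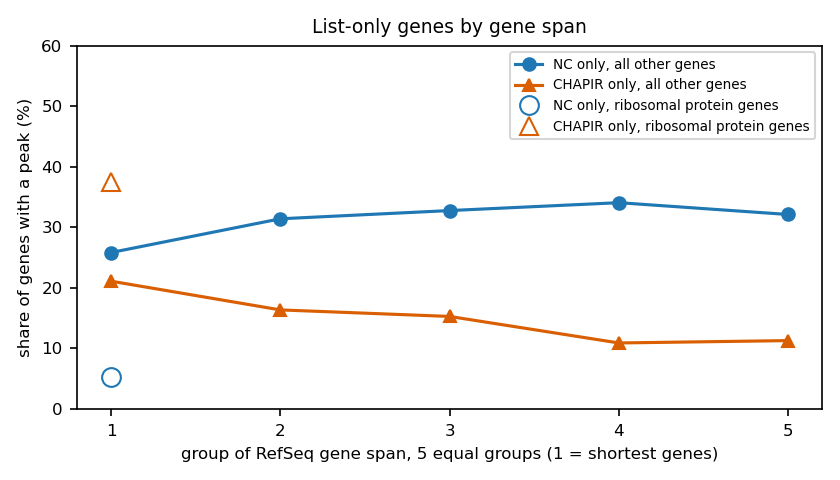
Share of genes with a peak (y axis, %) that had it in the control list only (blue circles) or the CHAPIR list only (orange triangles) by group of RefSeq gene span (x axis, 5 groups of equal size, 1 = shortest), for all genes other than the members (filled, joined by lines) and for the 56 members among the shortest genes (open). In that group the members are at 37.5% CHAPIR only and 5.36% NC only, and the other genes at 21.1% and 25.8%. The subunits are pooled in the open symbols, and their CHAPIR only shares are 43.6% (large) and 23.5% (small).

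Genes that act with the ribosomal proteins were read from lists chosen by function. Of 17 other TOP mRNAs with a peak, 14 were in both lists, Btf3 in the control list only, and Tpt1 and Vim in the CHAPIR list only. Eef2, which moves the ribosome along the mRNA, had a 3' UTR peak over the same 241 bases in both lists at 4.07-fold and 5.78-fold. Eef1a1, which brings aminoacyl-tRNA, had 1.60-fold and 5.08-fold. Of 49 translation factors with a peak, 37 were in both lists, 7 in the control list only and 5 in the CHAPIR list only. Of 54 mitochondrial ribosomal proteins 48 were in both, 1 in the control list only and 5 in the CHAPIR list only. All genes with a peak were split into 53.5% in both lists, 31.3% in the control list only and 15.3% in the CHAPIR list only.

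The genes that build ribosomes were read next. Of 53 assembly genes with a peak (73 named), 34 were in both lists, 17 in the control list only and 2 (3.77%) in the CHAPIR list only, against 15.3% of all genes for the last class. The NC only genes included Fbl, the methyltransferase of nucleolar RNPs (2.37-fold, FDR 0.000135), and Gnl3, or nucleostemin (12.9-fold, FDR 0.000138). Others were Mdn1, the ATPase that remodels 60S precursors (4.29-fold, FDR 0.000295), and Utp20 of the small subunit processome (4.69-fold, FDR 0.00617). The CHAPIR only genes were Nob1, the nuclease that ends 18S rRNA maturation (7.28-fold over 61 bases, FDR 0.0141), and Nop9 (4.94-fold, FDR 5.5e-05). Of 8 genes of RNA polymerase I and its factors with a peak, 5 were in both lists and 3 in the control list only. The NC only shares, 32.1% and 37.5%, lie close to the 31.3% of all genes.

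Of 17 genes with a peak (20 named) that control the translation of ribosomal protein mRNAs, 9 (52.9%) were in both lists. The control list only and the CHAPIR list only held 4 each (23.5%). Over all genes with a peak the shares of these classes were 53.5%, 31.3% and 15.3%. Mtor, the growth kinase itself, had a 3' UTR peak at 4.68-fold (FDR 0.000148) in the CHAPIR list only, and so had its inhibitor Tsc2 at 2.50-fold (FDR 0.000158). Rptor, the partner that brings mTOR its substrates, had a 3' UTR peak at 4.83-fold (FDR 0.00331) in the control list only. Larp1 was in both lists at 4.10-fold and 4.33-fold, in the coding sequence in the control list and in the 3' UTR in the CHAPIR list. The nuclear-encoded respiratory chain genes had a CHAPIR only share near that of the large subunit, at 31 of 79 (39.2%) against 40.9%. Their other shares differed, with 46 (58.2%) in both lists against 47.7%, and 2 (2.53%) in the control list only against 11.4%.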

How the data were processed

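Per the labels' protocols, heart mRNA was fragmented to 100 nucleotides, pulled down with an antibody against m6A, made into stranded libraries beside input RNA and sequenced for 150 cycles. Reads were aligned with HISAT2 (2.1.0 and GRCm38 per the submitters' processing notes), and peaks were called with exomePeak for each condition, for which the sources used here name no version or options. Fold enrichment was deposited as a ratio of pulled-down over input signal with a p-value and an FDR from the authors' peak calling. These were used within a list only, and the deposited FDRs reached 0.0501 (NC) and 0.0468 (CHAPIR).

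The deposited starts count from 0, since 399 starts in the CHAPIR list lay 1 base ahead of a RefSeq gene and 102 at its first base, so 1 base was added. Genes were classed by the authors' symbol. The leading peak was the line of smallest FDR (ties by higher fold, then width), on protein-coding transcripts where a gene had one. Overlap was taken on exonic blocks of the same strand in Python 3.11.15 with pandas 2.3.3, in place of the bedtools run first planned, and recovered 500 of 500 simulated pairs. Figures used matplotlib 3.10.9 and intervals scipy 1.17.1.

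Members, gene lists and naming rules were chosen with earlier results of these data known. Values were given, per subunit and class, for up to 8 members of smallest FDR and 3 further ones of highest fold, for stalk genes, paralog pairs and members with several positions or leading peaks apart. Other members and pathway genes given with values were chosen after their values were seen. Alternatives were other thresholds of FDR and fold, lists of equal length, protein-coding lines only, other overlap rules, and members left out for shared or opposite-strand peaks or as paralogs. Reads and their counts were not analysed here. Some genes that the rules name are counted but their own values are left out of the text and figures.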

Additional observations from a re-analysis of the deposited data

How the results depend on the processing

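With only peaks of at least 4-fold kept, the large subunit genes in both lists fell to 5 from 21 and the small subunit genes in both lists to 2 from 13, and no large subunit gene (0) stayed in the control list only. At that threshold 7 members were in both lists and 19 in the CHAPIR list only, of 26 left, beside a CHAPIR only share of 29.7% of all genes, and only 6 of those 19 had been CHAPIR only before. A fold of at least 2, chosen after seeing the data, left 3 large subunit genes in the control list only. At an FDR at or under 1e-05, 1 small subunit gene, Rps23, was in the control list only. Over all transcript types, the leading peak was annotated to the 3' UTR in 20 of 39 members (NC) and 35 of 57 (CHAPIR). Lines on retained-intron and other noncoding transcripts are annotated to an exon alone. The members' other counts moved by less than 1.5 times under the alternatives run. Over all genes, those in both lists fell to 2247 at that FDR and to 1745 at 4-fold from 3557, and those in the control list only to 1308 at that FDR and to 1112 with lists of equal length from 2081.

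No paired analysis was possible because each condition has 1 peak list. Depth of the libraries is unknown, so absence from a list shows that no peak was called there, not that the mRNA lacks m6A. Thresholds were applied within each list, on folds that are not scaled between the lists. The classes describe these libraries and not the treatment.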

Other observations

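Genes named as pseudogenes of ribosomal proteins also had peaks. Rpl10a-ps1, Rpl14-ps1 and Rpl36a-ps1 were in both lists, Rpl17-ps5 was in the CHAPIR list only, and Rpl21-ps11 and Rpsa-ps2 were in the control list only. Rpl14-ps1 had an authors' fold of 13.9 in the control list, where Rpl14 itself had 2.52, and of 3.06 in the CHAPIR list, where Rpl14 had 5.83. Rpl36a-ps1 had 10.2 and 4.83, where Rpl36a had 3.41 and 2.62. Rpl10a had a peak in the control list only and Rpl10a-ps1 in both, with folds of 3.10 and 2.0. Reads of a gene and its pseudogene can be hard to tell apart, and this was not tested.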
